A study of Mus musculus with 30 samples.

Results

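Uroplakin genes were described in mouse preputial gland, labelled as its duct, across 3 genotypes of male mice on the B6 background fed benzo[a]pyrene (BaP), a carcinogenic hydrocarbon of combustion. The members were every gene with a probe set mapped to 1 of the symbols Upk1a, Upk1b, Upk2, Upk3a and Upk3b, which gave 5 genes of the 18784 measured. The set was selected on measured values, namely the lower log2 intensity of Upk1b in Cyp1a1 knockout arrays at week 16, so comparisons that hold Cyp1a1 KO or WT arrays of week 16 are given as descriptions without a test. The groups were Cyp1a1/1b1 double knockout (DKO), Cyp1a1 knockout (KO) and wild type (WT), each sampled at weeks 0, 4, 8, 12 and 16 of oral BaP. All mice began the diet, about 12.5 mg/kg/day, at 6 weeks of age, and week 0 mice were killed as it began. Of the 15 mice per genotype and time that entered the study, 2 were profiled, with 1 array each, which gives 15 groups of 2 arrays. No group of older mice without BaP is among the samples, so weeks of exposure and age cannot be told apart. The protocols describe whole preputial glands dissected free of nearby tissue, so each array averages duct, gland and supporting cells. In such bulk RNA, fewer cells of a type and less RNA per cell cannot be told apart.

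Uroplakins are membrane proteins that assemble into rigid plaques on the apical surface of the umbrella cells that line the bladder. Upk1a and Upk1b are tetraspanins, with several spans across the membrane, whereas Upk2, Upk3a and Upk3b cross it once. In the bladder Upk1a pairs with Upk2, and Upk1b pairs with Upk3a or Upk3b, before the pairs leave the endoplasmic reticulum; Upk1b is able to leave it alone and is also made in other stratified epithelia such as the cornea. Upk3b is in addition a marker of mesothelium. The preputial gland is a modified sebaceous gland whose secretion leaves through a duct lined with stratified squamous epithelium.

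The 250 bases before the transcription start of a member of each structural class are printed here, since Upk1a on the one side and Upk3a and Upk3b on the other had calls of opposite sign below. RefSeq promoters of build GRCm38.p6 were matched by symbol for 3 of the 5 genes. Capitals mark the GC box GGGCGG, a binding motif of Sp1-like factors. Upk1a was read from chr7:30612735-30612984 (minus strand), Upk3a from chr15:85016891-85017140 (plus strand) and Upk3b from chr5:136038246-136038495 (plus strand), each written 5′ to 3′.
Upk1a: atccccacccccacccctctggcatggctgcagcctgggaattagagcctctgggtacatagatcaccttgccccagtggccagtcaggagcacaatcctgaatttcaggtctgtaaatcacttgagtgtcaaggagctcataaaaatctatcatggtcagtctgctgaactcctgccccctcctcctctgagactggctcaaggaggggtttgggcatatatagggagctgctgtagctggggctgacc
Upk3a: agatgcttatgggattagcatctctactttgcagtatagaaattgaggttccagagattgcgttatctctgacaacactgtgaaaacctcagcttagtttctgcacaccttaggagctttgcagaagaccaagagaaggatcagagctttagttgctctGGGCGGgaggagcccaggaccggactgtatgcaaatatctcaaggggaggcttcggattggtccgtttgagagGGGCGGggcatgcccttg
Upk3b: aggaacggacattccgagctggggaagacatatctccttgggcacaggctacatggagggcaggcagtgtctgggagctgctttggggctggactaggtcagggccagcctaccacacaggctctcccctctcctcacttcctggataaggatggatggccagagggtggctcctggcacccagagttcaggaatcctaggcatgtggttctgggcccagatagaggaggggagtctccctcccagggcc
Searched on both strands, GGGCGG occurred only in Upk3a among these 3, 91 and 18 bases before the start, and was found in 32.9% of 27025 promoters of the same length. The GATA motif AGATAA also occurred in Upk3a, on the opposite strand 188 bases before the start, and in 10.3% of promoters. None of the 3 windows held GCGTG, the core bound by the aryl hydrocarbon receptor (28.2% of promoters), TATAAA (12.97%) or AACCNG, the core of grainyhead-like factors (33.7%). No motif searched contains another.

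On 9 arrays, namely 8 of the 10 DKO arrays and KO week 12 replicate 2, the log2 values of all genes had a standard deviation of 1.15 to 1.42, against 1.70 to 2.08 on the other 21; these are called narrow-range arrays. Olfactory receptor genes, 1068 genes not known for a role in this gland, served as a reference for low signal, and their 95th percentile on an array is called the low-signal level. It was 5.67 to 6.03 on narrow-range arrays and 4.44 to 5.19 on the others. Cyp1a1 itself read 3.96 to 6.14 in DKO and 3.67 to 4.80 in KO, against 4.26 to 4.74 in WT, and so does not check the genotype labels. Cyp1b1, which is also deleted in DKO, read higher in DKO (7.48 to 10.57, median 10.20) than in KO (6.66 to 8.82, median 8.41) and WT (6.17 to 6.77, median 6.51), against what the DKO label would give for a lost transcript. Where its probes lie relative to the deleted part is not given in the sources used here. DKO, KO and WT below therefore name arrays by their labels, and each DKO direction rests on that label. The number in each array's label, 1 to 20 or 22 to 33, nearly separates DKO from the rest: DKO week 0 replicate 1 was the only DKO array numbered 20 or lower, and KO week 12 replicate 2 the only other-genotype array numbered above 20.

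Upk1a lay above the low-signal level on 5 of 10 DKO arrays, 9 of 10 KO arrays and 10 of 10 WT arrays. Upk2 was above it on 6 DKO, 10 KO and 10 WT arrays. Upk1b was above it on none of the 10 DKO and none of the 10 KO arrays, and on 7 of the 10 WT arrays. For Upk3a the counts were 1, 6 and 5, and for Upk3b 4, 5 and 7, in DKO, KO and WT. Of 19 further urothelial umbrella and luminal genes, 8 in DKO, 11 in KO and 12 in WT had a median above the low-signal level. The highest was Cyp2f2, a cytochrome P450, at 8.79 in DKO, 10.77 in KO and 11.44 in WT. Krt20, the keratin of umbrella cells, was under that level, with medians of 4.42 in DKO, 3.94 in KO and 3.71 in WT, and the sorting nexin Snx31, which binds uroplakins, was under it too, at 4.65, 4.57 and 4.43. Basal keratinocyte markers were high, with the mean of 6 genes at 6.77 to 8.44 in DKO, 7.57 to 9.03 in KO and 8.61 to 9.20 in WT. None of them was under the low-signal level by median in any genotype. Of 7 cornified-layer genes 0, 2 and 2 were under it in DKO, KO and WT, and of 8 sebocyte genes 2, 1 and 1. All 6 measured markers of male accessory glands were under that level in each genotype. The mean of the 7 mesothelium markers, Upk3b among them, was 4.64 to 5.55 in DKO, 4.30 to 4.87 in KO and 4.22 to 4.50 in WT, with 7, 5 and 5 of the 7 below the low-signal level.

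Upk1b was the most variable uroplakin in WT and was low throughout KO. Values are given as log2 intensity after RMA, replicate 1 before replicate 2. In DKO, Upk1b read 4.95 and 3.67 at week 0, 5.48 and 4.83 at week 4, 4.94 and 5.13 at week 8, 5.54 and 4.84 at week 12, and 5.03 and 4.90 at week 16. In KO it read 4.54 and 4.21 at week 0, 3.93 and 3.81 at week 4, 3.68 and 3.97 at week 8, 4.19 and 4.73 at week 12, and 4.61 and 4.65 at week 16. In WT it read 5.70 and 4.14 at week 0, 5.92 and 6.42 at week 4, 4.13 and 5.47 at week 8, 4.30 and 5.12 at week 12, and 7.23 and 7.18 at week 16. The KO arrays lay between 3.68 and 4.73, while the WT arrays ranged from the level of the KO arrays to the highest values of all. At weeks 0, 8 and 12 the WT pairs were split, with 1 mouse within the KO range and the other above it.

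**Figure D1:**
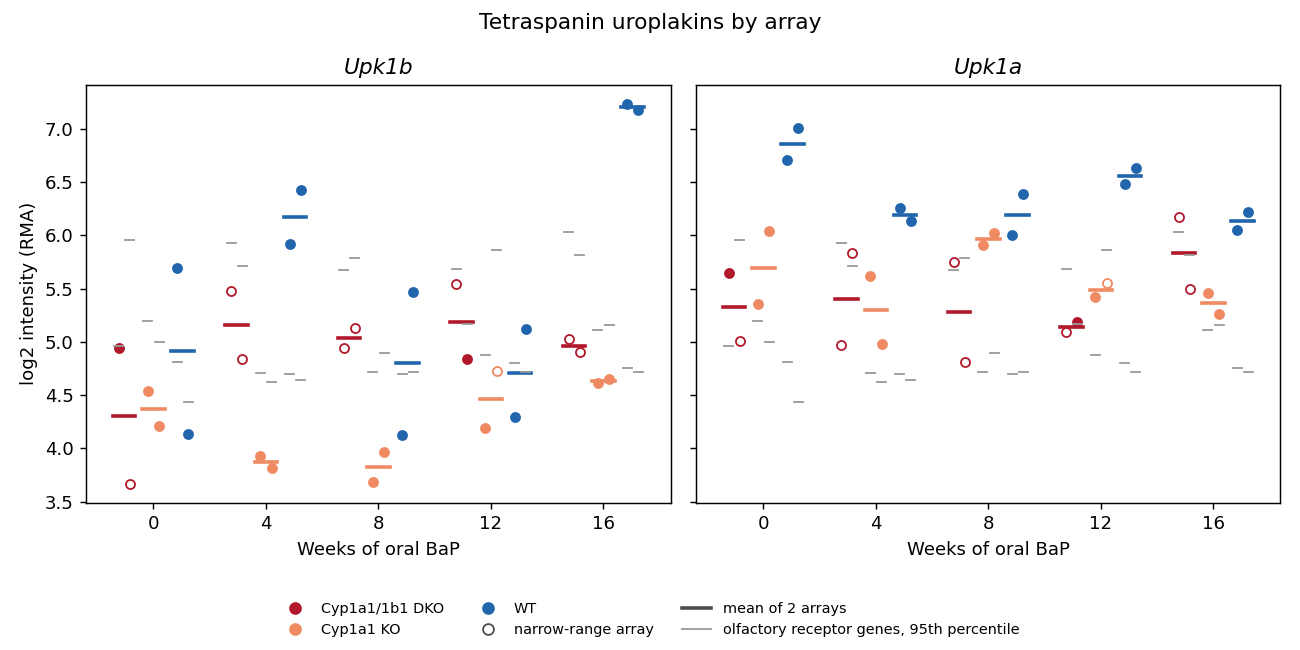
Log2 intensity (RMA) of Upk1b (left) and Upk1a (right) against weeks of oral BaP, with DKO, KO and WT side by side at each week. Points are single arrays, open where the array is narrow-range, thick bars are means of 2 arrays and thin grey bars the low-signal level of each array; WT Upk1b stands at 7.23 and 7.18 at week 16, and no DKO or KO array of Upk1b exceeds its grey bar.

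Ordered by group mean, Upk1b was highest in WT at week 16 (7.21 ± 0.04, SD, n = 2) and next in WT at week 4 (6.17 ± 0.36), and neither pair of arrays overlapped the group ranked below it. The following groups, from DKO week 12 (5.19 ± 0.50) and DKO week 4 (5.16 ± 0.46) down through WT week 0 (4.92 ± 1.10), WT week 8 (4.80 ± 0.94) and WT week 12 (4.71 ± 0.58) to KO week 0 (4.37 ± 0.23) and DKO week 0 (4.31 ± 0.90), differed from their neighbours by less than the SD of the group or its neighbour. KO week 4 (3.87 ± 0.08) and KO week 8 (3.82 ± 0.20) were lowest and overlapped each other.

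The scatter between the 2 mice of a WT group was wide for this gene. Pooled over the 5 WT groups its SD was 0.718 log2 units, and only 43 of 18784 genes (0.229%) had a larger one, with a median of 0.168 over all genes. In DKO its SD was 0.510 (median gene 0.560) and in KO 0.222 (median gene 0.342), where 59.1% and 78.9% of genes had a larger SD. The other uroplakins did not share that scatter in WT: pooled SDs were 0.175 for Upk1a, 0.218 for Upk2, 0.115 for Upk3a and 0.118 for Upk3b.

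Averaged over weeks 0 to 12, the period not used to choose the genes, Upk1b was lower in KO than in WT. KO arrays had a lowest, median and highest value of 3.68, 4.08 and 4.73, and WT arrays 4.13, 5.29 and 6.42 (8 arrays each). Of the 8 KO arrays 4 lay below every WT array, so the groups overlapped. The difference was -1.02 ± 0.24 log2 (SE; adjusted p = 0.0345 by limma). Both tetraspanin uroplakins fell and none of the single-pass uroplakins was called. That makes 2 of 5 members where 1.51% of all genes (283) were called, 267 of them lower in KO and 16 higher. Of the fits that left out 1 array, that background was lowest, at 97 genes, when WT week 0 replicate 2 or the first replicate of WT week 4 was dropped, and highest, at 1929, when KO week 12 replicate 1 was. It stayed within 1.5-fold of 283 only on dropping KO week 0 replicate 2, WT week 0 replicate 1 or the second replicate of WT week 12. It was 25 genes after quantile normalization and 2060 without the narrow-range arrays. The call of Upk1b is close to the threshold: it was lost without either array of WT week 4, KO week 0, KO week 4 or KO week 8, and without WT week 0 replicate 1, WT week 8 replicate 2, WT week 12 replicate 2 or KO week 12 replicate 2, with adjusted p from 0.0501 to 0.133 and a difference of -1.08 to -0.82. Quantile normalization (adjusted p = 0.218) and array weights (adjusted p = 0.0679) also ended it. Without the narrow-range arrays it was -1.08 (adjusted p = 0.00942).

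Within single weeks the KO minus WT difference of Upk1b was -0.54 at week 0, -2.30 at week 4, -0.97 at week 8 and -0.25 at week 12. The KO arrays of weeks 4 and 8 all lay at 3.97 or lower, and the WT arrays of those weeks at 4.13 or higher. None passed the test (adjusted p = 0.799, 0.367, 1.00 and 0.793), in weeks where 0%, 0%, 0% and 0.0266% of all genes were called. An unadjusted p under 0.05 was found for 1292, 215, 114 and 3001 of 18784 genes at weeks 0, 4, 8 and 12. Over the 20 tests of a member in a single week limma called 0, and 5 had such a p. They were Upk1a at weeks 0, 4 and 12, Upk1b at week 4 and Upk3a at week 0. Without the narrow-range arrays 4 were called: Upk1b at week 4 (adjusted p = 0.0455, with 46 of all genes called), and Upk1a (-1.16, adjusted p = 0.00986), Upk3a (0.74, adjusted p = 0.00855) and Upk3b (0.62, adjusted p = 0.0352) at week 0, where 2926 of all genes were called. Only 0.0373% of genes differed as much as Upk1b at week 4. At week 16, the week that picked the gene, KO read 4.61 and 4.65 and WT 7.23 and 7.18, a difference of -2.57 between means. From week 0, when the WT pair was split at 5.70 and 4.14, to week 16 the mean was 2.29 higher in WT. In KO it was 0.26 higher. The choice of the gene rested on week 16, so the size of these differences is no separate result.

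In DKO, Upk1b stood between the other genotypes on average over weeks 0 to 12. By week, its mean lay between theirs at week 4 only. At week 0 the DKO mean was the lowest (4.31, against 4.37 in KO). At weeks 8 and 12 it was the highest (5.03 and 5.19, against 4.80 and 4.71 in WT). Over weeks 0 to 12 Upk1b in DKO had a lowest, median and highest value of 3.67, 4.94 and 5.54. It was 0.79 ± 0.24 log2 above KO (adjusted p = 0.0116 by limma), the only member called of 5 in a comparison that called 50.4% of all genes, and its difference from WT was -0.23 ± 0.24 (adjusted p = 0.411). Of the 8 DKO arrays 7 lay above every KO array, but all 8 lay under their own low-signal level, which is higher on the narrow-range arrays. The part of array range in the DKO difference was not tested. With the label numbers as a block the value above KO was 1.07 ± 0.43 and was no longer called (adjusted p = 0.352). Quantile normalization gave 0.44 (adjusted p = 0.245) and array weights 0.79 (adjusted p = 0.234), neither called. At week 16 the DKO arrays read 5.03 and 4.90 and the WT arrays 7.23 and 7.18, a difference of -2.24 between means.

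Upk1a, the tetraspanin partner of Upk2, was lower in both knockout genotypes than in WT over weeks 0 to 12. In DKO it read 5.65 and 5.01 at week 0, 4.97 and 5.83 at week 4, 5.75 and 4.81 at week 8, 5.09 and 5.19 at week 12, and 6.17 and 5.50 at week 16. In KO it read 5.36 and 6.04 at week 0, 5.62 and 4.98 at week 4, 5.91 and 6.02 at week 8, 5.42 and 5.55 at week 12, and 5.45 and 5.27 at week 16. In WT it read 6.71 and 7.01 at week 0, 6.26 and 6.13 at week 4, 6.00 and 6.39 at week 8, 6.48 and 6.63 at week 12, and 6.05 and 6.22 at week 16. Over weeks 0 to 12 every DKO array lay below every WT array, whereas 6 of 8 KO arrays did. Upk1a was the only member without overlap between DKO and WT, as were 8.84% of all genes in that direction; in the other direction no member and 12.9% of all genes were separated. For KO below WT it was no member and 1.57% of all genes.

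The KO minus WT difference of Upk1a over weeks 0 to 12 was -0.84 ± 0.18 log2 (adjusted p = 0.0205 by limma, 8 arrays each), and without the narrow-range arrays it was -0.86 (adjusted p = 0.000793). Leaving out single arrays moved it between -0.92 and -0.75, and the call was lost without either array of WT week 4 or KO week 8, and without WT week 0 replicate 2, WT week 8 replicate 2, KO week 0 replicate 1 or KO week 4 replicate 2 (adjusted p from 0.0512 to 0.0830). After quantile normalization it was -0.62 and not called (adjusted p = 0.834). The DKO minus WT difference was -1.16 ± 0.18 (adjusted p = 2.69e-05) and was called in each fit that left out 1 array. Upk1a, Upk3a and Upk3b made 3 of 5 members called there, in a comparison that called 69.5% of all genes, a background too high for that share to set the uroplakins apart. With the label numbers as a block, Upk1a differed by -0.94 ± 0.36 and none of the 5 was called (adjusted p = 0.236 to 0.961), while 144 of all genes were. In the DKO array of the 1 to 20 range, week 0 replicate 1, Upk1a read 5.65 against 6.71 and 7.01 in WT of that week. DKO and KO differed by -0.33 ± 0.18 (adjusted p = 0.139, interval -0.71 to 0.06), a difference called without DKO week 8 replicate 1 (-0.44, adjusted p = 0.0473).

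Among single weeks Upk1a was lower in DKO than in WT at week 0 (-1.53 ± 0.37, adjusted p = 0.0253) and at week 12 (-1.42 ± 0.37, adjusted p = 0.0185), when 3.9% and 10.3% of all genes were called. The differences at weeks 4 and 8 were -0.79 (adjusted p = 0.0892) and -0.92 (adjusted p = 0.0620, with 29.3% of all genes called). In KO the weekly differences from WT were -1.16, -0.90, -0.23 and -1.07 at weeks 0, 4, 8 and 12, with adjusted p from 0.222 to 1.00. At week 16 the means differed from WT by -0.30 in DKO and -0.77 in KO.

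Upk2, the single-pass partner of Upk1a, was called in no comparison. In DKO it read 5.56 and 6.12 at week 0, 6.15 and 5.33 at week 4, 5.23 and 5.84 at week 8, 6.02 and 5.83 at week 12, and 5.25 and 4.93 at week 16. KO arrays had a lowest, median and highest value of 5.52, 5.78 and 6.25, and WT arrays 5.15, 5.58 and 5.86, over all weeks. The 3 genotypes overlapped, and the lowest reading of the gene was DKO week 16 replicate 2. Over weeks 0 to 12 it differed from WT by 0.25 ± 0.17 log2 in DKO (adjusted p = 0.173, interval -0.09 to 0.60) and by 0.32 ± 0.17 in KO (adjusted p = 0.407, interval -0.02 to 0.67). Across the 19 WT and KO arrays without the narrow-range one, its Spearman correlation with Upk1a was -0.47 and with Upk3a 0.75.

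Upk3a, the single-pass partner of Upk1b, read low in every genotype and varied little in WT. In DKO it read 4.75 and 5.02 at week 0, 5.23 and 5.97 at week 4, 4.88 and 4.82 at week 8, 5.14 and 4.85 at week 12, and 5.89 and 5.24 at week 16. In KO it read 5.23 and 5.36 at week 0, 4.75 and 4.81 at week 4, 4.82 and 4.95 at week 8, 4.81 and 5.43 at week 12, and 4.96 and 4.89 at week 16. In WT it ran from 4.49 to 5.06 with a median of 4.63. Over weeks 0 to 12, 7 of 8 DKO arrays and 7 of 8 KO arrays lay above every WT array.

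The DKO minus WT difference of Upk3a was 0.47 ± 0.15 log2 (adjusted p = 0.00882 by limma), in a comparison where the median of all genes was 0.21. That median was 0.05 after quantile normalization of the arrays and 0.06 after centring each on its median, and Upk3a then differed by 0.084 (adjusted p = 0.763) and 0.32 (adjusted p = 0.0525). The label numbers as a block left 0.070 (adjusted p = 0.950). Only 1 of 10 DKO arrays, week 4 replicate 2, had Upk3a above its low-signal level. Week 4 was also its only called single week (0.95 ± 0.30, adjusted p = 0.0195, with 36.9% of all genes called). The KO minus WT difference was 0.40 ± 0.15 (adjusted p = 0.233). It was called without the narrow-range arrays (0.32, adjusted p = 0.0177, with 2060 genes called), when the spread was estimated from WT and KO arrays alone (adjusted p = 0.0315, with 1353 genes called), a fit chosen after the data were seen, and without KO week 12 replicate 1 (0.48, adjusted p = 0.0440). At week 16 the mean differed from WT by 0.59 in DKO and by -0.045 in KO.

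Upk3b, which also pairs with Upk1b, had its highest readings on DKO arrays. In DKO it read 5.23 and 6.06 at week 0, 5.84 and 5.34 at week 4, 6.19 and 4.84 at week 8, 5.29 and 5.03 at week 12, and 6.61 and 5.58 at week 16. In KO it read 5.40 and 4.96 at week 0, 4.97 and 4.72 at week 4, 4.86 and 4.72 at week 8, 4.87 and 5.55 at week 12, and 5.05 and 5.32 at week 16. In WT it ran from 4.44 to 5.01 with a median of 4.76. Narrow-range arrays read 4.84 to 6.61 with a median of 5.58, and the other 21 read 4.44 to 5.40 with a median of 4.87, and the highest KO reading was the narrow-range array.

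Over weeks 0 to 12 Upk3b was 0.75 ± 0.20 log2 higher in DKO than in WT (adjusted p = 0.00253 by limma), with 7 of 8 DKO arrays above every WT array. Quantile normalization gave 0.58 (adjusted p = 0.136), and a block for the label numbers gave 0.087 (adjusted p = 0.954), neither called. In DKO week 0 replicate 1, within the 1 to 20 range and not narrow, Upk3b read 5.23 against 4.69 and 4.44 in WT. KO differed from WT by 0.28 ± 0.20 (adjusted p = 0.506, interval -0.14 to 0.69), and DKO from KO by 0.47 ± 0.20 (adjusted p = 0.0542). Without KO week 0 replicate 1, KO week 12 replicate 2, DKO week 0 replicate 1, DKO week 4 replicate 2 or DKO week 8 replicate 2 that last difference was called (lowest adjusted p 0.00942, difference up to 0.64). Upk3bl, a relative of Upk3b beside it on the chromosome, was 0.79 ± 0.25 higher in DKO than in WT (adjusted p = 0.00842 by limma). In KO it was 0.27 ± 0.25 higher (adjusted p = 0.591, not called). Upk3bl was above the low-signal level on 2 of 10 DKO arrays and on 0 KO and 0 WT arrays. Its median was 5.22 on narrow-range arrays and 4.31 on the other 21. Across the 19 WT and KO arrays Upk3a and Upk3b had a Spearman correlation of 0.60.

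**Figure D2:**
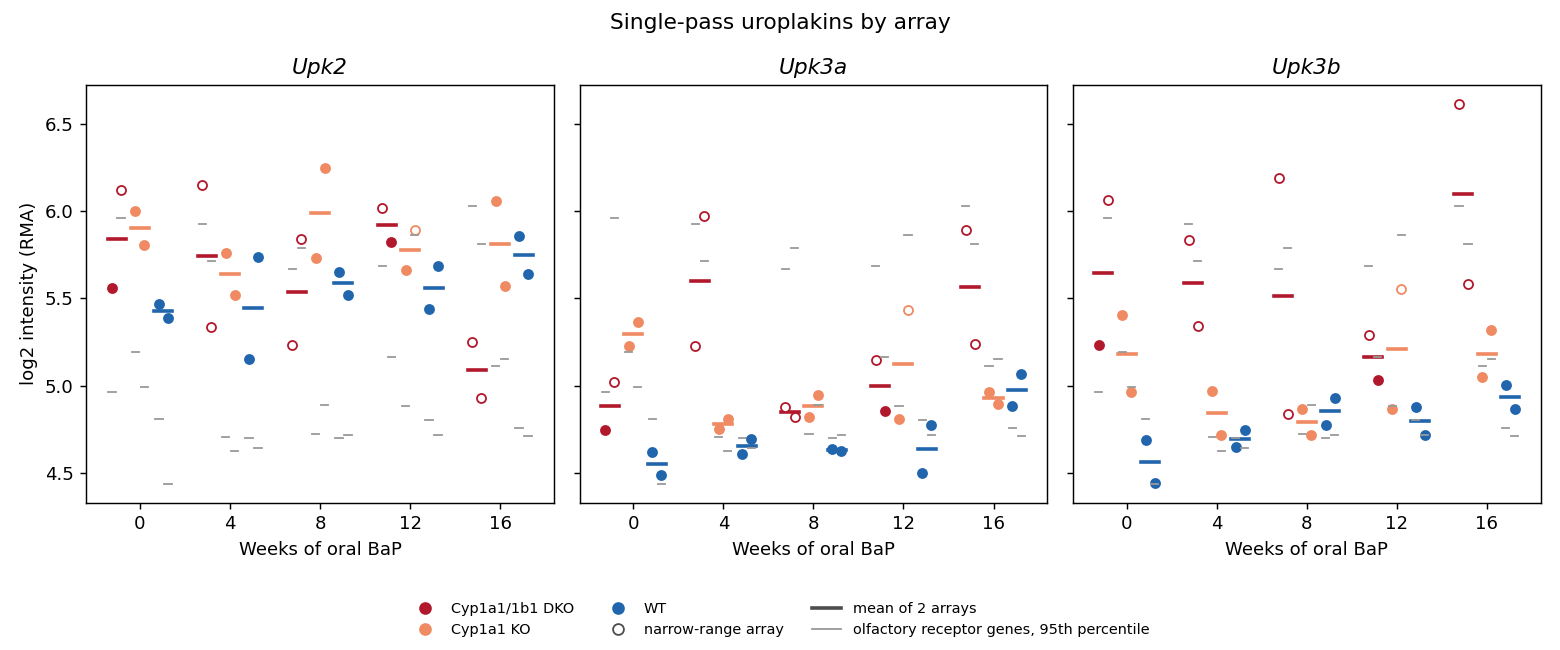
Log2 intensity (RMA) of Upk2, Upk3a and Upk3b against weeks of oral BaP, with DKO, KO and WT side by side at each week. Points are single arrays, open where narrow-range, thick bars are means of 2 arrays and thin grey bars the low-signal level; DKO arrays of Upk3b reach 6.61 while WT arrays stay between 4.44 and 5.01.

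**Figure D3:**
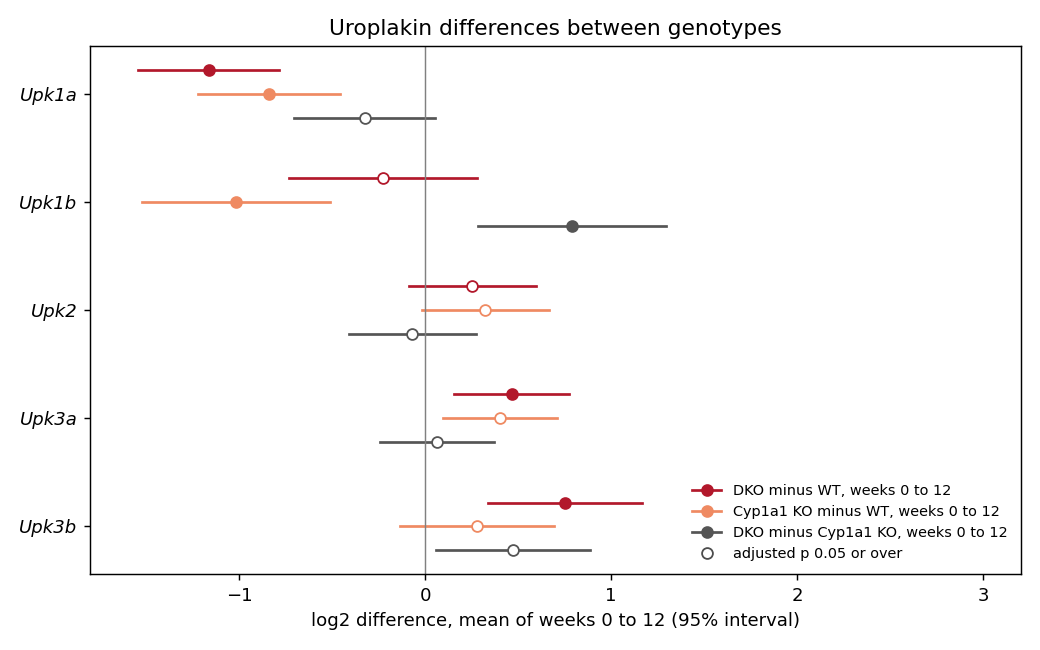
Log2 difference between genotypes over weeks 0 to 12 for the 5 uroplakins (horizontal axis), with 95% intervals from limma and 8 arrays per genotype. Filled points have an adjusted p under 0.05: Upk1a lies below 0 in both DKO and KO against WT, Upk1b lies at -1.02 in KO and -0.23 in DKO against WT, and Upk3a and Upk3b are filled in DKO against WT only.

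No uroplakin was called for a change with weeks of BaP within a genotype. Over weeks 4 to 12 against week 0, limma called 0 of 5 members and 0% of all genes in KO and in WT (413 and 90 genes at an unadjusted p under 0.05, no member among them). In DKO, over weeks 4 to 16, 0 of 5 members were called where 0.974% of all genes were, and at week 16 alone 0 of 5 where 4.04% were. The largest of these was Upk1b in DKO over weeks 4 to 16, with 8 arrays at 4.83 to 5.54 against 4.95 and 3.67 at week 0 (0.78 ± 0.39, adjusted p = 0.321); without DKO week 0 replicate 2 it was 0.14. At week 16 in DKO, Upk2 differed from week 0 by -0.75 ± 0.33 (adjusted p = 0.185 by limma) and Upk3a by 0.68 ± 0.30 (adjusted p = 0.179). Both had an unadjusted p under 0.05, as did 4155 of 18784 genes. The change from week 0 to weeks 4 to 12 differed between genotypes for 0 of 5 members in each of 3 tests, all with an unadjusted p over 0.05, where 0.0319% (DKO against KO), 0.0266% (DKO against WT) and 0% (KO against WT) of all genes were called. The nearest was Upk1b in DKO against KO, at 1.14 ± 0.56 (adjusted p = 0.727).

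Genes were ranked by the Spearman correlation of their log2 values with Upk1b over the 19 WT and KO arrays, which share genotype and week, so the values are descriptions only. Of 16885 genes, the 5 most alike were Ccdc189 (0.78), Cep164 (0.77), Pi16 (0.76), Camk2b (0.75) and Nxpe4 (0.74). After each group's mean was subtracted, their correlations with Upk1b were 0.10, 0.19, 0.35, 0.035 and 0.31 in the same order. Cep164 encodes a centriole appendage protein and Camk2b a calcium-dependent kinase. None of these 5 differed between KO and WT by the test (adjusted p = 0.472 to 0.912). They ranged little: Ccdc189 lay between 3.86 and 4.60 in KO and between 4.17 and 4.72 in WT. The 3 least alike were Lepr, the leptin receptor (-0.83), Carf (-0.82) and Sdcbp, the adaptor syntenin that binds tetraspanins (-0.79); with group means subtracted they were at -0.32, -0.89 and -0.64. Lepr was higher in KO than in WT over weeks 0 to 12 (0.58 ± 0.14, adjusted p = 0.0405 by limma). Lepr was picked for its correlation with Upk1b on most of these same arrays, so that call is no separate result.

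Within WT alone, a ranking added after the data were seen, the gene that followed Upk1b most closely was Krt7, a keratin of simple and transitional epithelia that is also used as a marker of gland ducts. Among the 706 genes whose 10 WT arrays spanned over 1.5 log2 units, Krt7 had a Spearman correlation of 0.976 and a Pearson correlation of 0.957 with Upk1b, and 0.905 by Pearson without the 2 arrays farthest from the median. In WT, Krt7 read 6.16 and 5.08 at week 0, 6.29 and 6.40 at week 4, 5.296 and 5.528 at week 8, 5.43 and 6.05 at week 12, and 6.94 and 6.89 at week 16. The mouse of each split WT pair with the higher Upk1b also had the higher Krt7. Krt7 was ranked first on these same arrays, so that match is part of the ranking and no separate result. Next came Lor (loricrin of the cornified envelope), Wfdc10 and Cpa6 at 0.952, Ltf (lactoferrin), Cmah and Klk13 (a kallikrein protease) at 0.939, and Psca, a surface antigen of bladder and prostate epithelium, at 0.927.

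In KO all 8 of these genes had a negative Spearman correlation with Upk1b. In KO, Krt7 read 5.21 and 5.16 at week 0, 6.60 and 6.97 at week 4, 5.68 and 5.87 at week 8, 5.80 and 5.17 at week 12, and 5.86 and 5.89 at week 16. Its highest KO readings, at week 4, fell on mice whose Upk1b was 3.93 and 3.81, where WT mice of that week with Krt7 at 6.29 and 6.40 had Upk1b at 5.92 and 6.42. Over the 10 KO arrays it was -0.88 for Cpa6, -0.82 for Cmah, -0.75 for Wfdc10 and Klk13, -0.72 for Ltf, -0.49 for Psca, -0.38 for Krt7 and -0.12 for Lor. All KO values of Upk1b lay under the low-signal level, so their order is poorly measured. These 10 arrays include the narrow-range KO week 12 replicate 2, with the highest KO reading of Upk1b (4.73). The low-signal level was 5.86 on that array. It was lowest in KO, at 4.62, on week 4 replicate 2, where Upk1b read 3.81. The part of array range in these correlations, and their difference from those in WT, were not tested. The level of Krt7 differed between KO and WT by 0.03 ± 0.21 over weeks 0 to 12 (adjusted p = 0.948, interval -0.41 to 0.47) and that of Psca by -0.04 ± 0.26 (adjusted p = 0.945, interval -0.58 to 0.50). Cpa6, a carboxypeptidase, was higher in KO (0.92 ± 0.21, adjusted p = 0.0245).

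**Figure D4:**
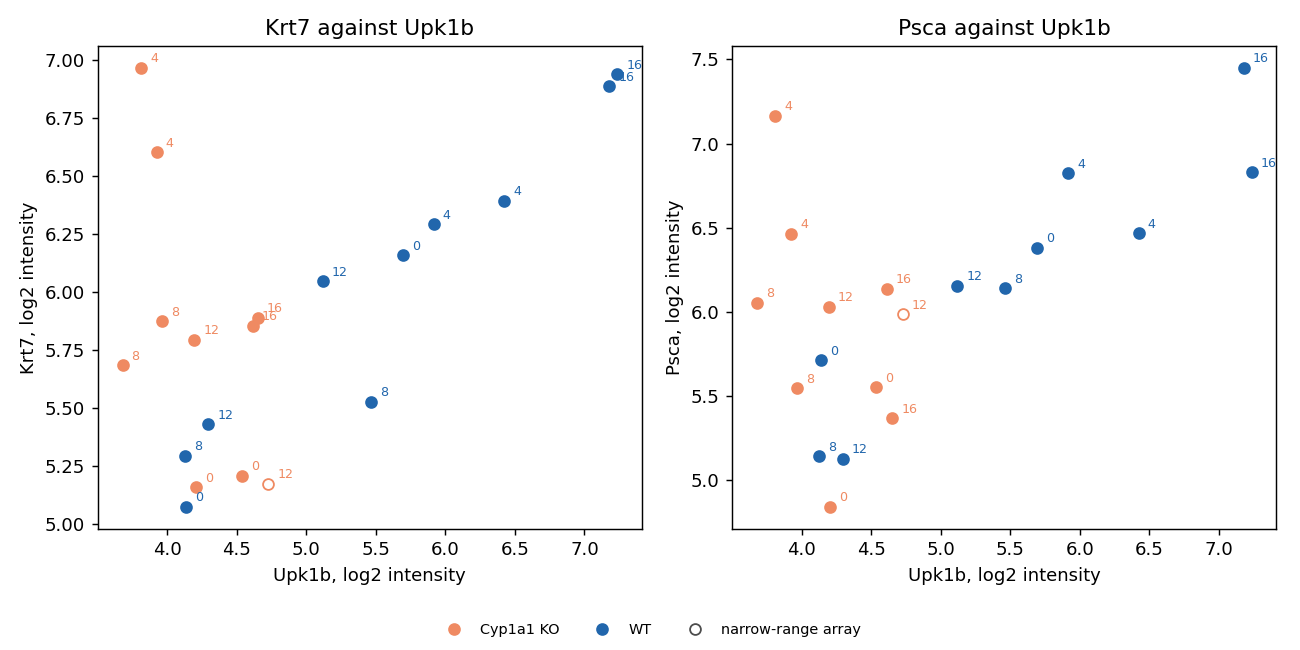
Log2 intensity (RMA) of Krt7 (left) and Psca (right) against Upk1b on each KO and WT array, with the week of BaP beside each point and the narrow-range array open. WT points run from low to high on both axes, while KO points span Krt7 values of 5.16 to 6.97 with Upk1b between 3.68 and 4.73.

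Genes around the uroplakins were counted in 4 lists. Of 19 urothelial umbrella and luminal genes, 0 were called between KO and WT over weeks 0 to 12 (median difference 0.03, against 0.09 over all genes, of which 1.51% were called). The 2 with the smallest adjusted p were the lipid enzyme gene Gdpd3 (-0.73 ± 0.20, adjusted p = 0.0721) and the membrane protease gene Tmprss2 (-0.38 ± 0.17, adjusted p = 0.350). Of all genes called between KO and WT, 267 were lower in KO and 16 higher. Of 16 genes of uroplakin trafficking and membrane rafts, 1 fell and 15 were not called (median -0.12). It was Vamp8, a vesicle fusion protein of the endosomal and secretory route, at 9.09 in KO and 10.2 in WT on average (-1.06 ± 0.22, adjusted p = 0.0158). Rab8a, a small GTPase of apical delivery, differed by -0.76 ± 0.21 (adjusted p = 0.0691).

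Of 16 epithelial transcription factors linked to uroplakin expression, 0 were called between KO and WT (median -0.11). Rxra, a nuclear receptor partner of Pparg, differed by -0.65 ± 0.20 (adjusted p = 0.114) and Gata3 by -0.56 ± 0.20 (adjusted p = 0.222). Of 23 measured tetraspanins other than Upk1a and Upk1b, 2 fell and none rose (median -0.17). Of all genes 1.51% were called, 267 lower in KO and 16 higher. By limma Tspan17, which escorts the protease ADAM10, fell by 0.67 ± 0.15 (adjusted p = 0.0222). Cd151, a partner of laminin-binding integrins, fell by 0.79 ± 0.20 (adjusted p = 0.0459). After quantile normalization, which called 0.133% of all genes, 0 of the 23 were called, with Tspan17 at -0.40 and Cd151 at -0.53. The basal keratinocyte level in KO moved the same way beside these, with Krt5 at 8.75 in KO and 9.41 in WT (-0.66 ± 0.21, adjusted p = 0.142 by limma). The sebocyte gene Awat2 was at 10.89 in KO and 11.02 in WT. The mean of the 8 measured sebocyte markers was lower in KO, with a median over arrays of 8.73, against 9.06 in WT. The part of these levels in the fall of Upk1a and Upk1b was not tested.

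Between DKO and WT most list members were called, as were 69.5% of all genes. With the label numbers as a block, 0 members of the 4 lists were called, and 0.767% of all genes. Of the umbrella and luminal genes 7 rose and 8 fell, among them Gprc5a, an orphan receptor induced by retinoic acid (1.34 ± 0.19, adjusted p = 1.04e-05), and Cyp2f2 (-2.53 ± 0.39, adjusted p = 2.12e-05). Of the trafficking genes 2 rose and 8 fell (median -0.56, against 0.21 over all genes), led by Vamp8 (-2.06 ± 0.22) and Vps33b, a tether of late endosomes (-1.87 ± 0.27). Of the transcription factors 6 rose and 6 fell. Foxa1, a pioneer factor of luminal epithelium, rose by 1.16 ± 0.19. Pparg, the lipid-sensing receptor of sebocytes and urothelium, fell by 1.49 ± 0.27. By median Gprc5a (5.41 in DKO, 4.13 in WT) and Foxa1 (5.05 and 4.07) lay under the low-signal level in each genotype. That level had a median of 5.75 in DKO and 4.71 in WT, and its part in these rises was not tested. Of the other tetraspanins 2 rose and 12 fell (median -0.80), with Cd9 lower by -2.52 ± 0.35 and Cd81 by -2.13 ± 0.30. Beside these, Krt5 was at 8.31 in DKO and 9.41 in WT, Krt1, the keratin of differentiating epidermis, at 7.93 in DKO and 3.82 in WT, and Awat2 at 9.16 in DKO and 11.02 in WT. The part of these shifts, and of the narrow-range arrays, in the DKO values of the uroplakins was not tested. After quantile normalization, which called 27.1% of all genes, 1 umbrella gene rose and 5 fell, 4 trafficking genes rose and 2 fell, 5 transcription factors rose and 2 fell, and 1 tetraspanin rose and 9 fell. Of the list members named here Pparg was then no longer called (-0.75, adjusted p = 0.0981 by limma). Of the 5 members per list with the smallest adjusted p before it, Rab8a, Stx3, Tollip, Elf3 and Gata3 also lost the call. Their adjusted p was 0.153 to 0.679, and the rest kept the call.

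Within DKO, week 16 against week 0, 2 of 19 umbrella genes and 1 of 23 other tetraspanins were called, and none of the trafficking genes or transcription factors, where 4.04% of all genes (759) were. By limma Krt19 of the umbrella list rose by 1.52 ± 0.29 (adjusted p = 0.00940) and Tspan1 by 1.29 ± 0.31 (adjusted p = 0.0256). On DKO arrays Krt19 read at most 5.76 and Tspan1 at most 5.04. The low-signal level was 6.03 and 5.81 on the week 16 arrays, so both genes lay under it there. Both week 16 arrays were narrow-range, and week 0 replicate 1 was not. The part of array range in these rises was not tested. Fmo5, a flavin monooxygenase, fell by 2.34 ± 0.66 (adjusted p = 0.0494). Cell-type genes moved beside these list members. By limma Krt1 averaged 10.57 at week 16 and 4.92 at week 0 (5.65 ± 0.49, adjusted p = 8.96e-07). Awat2 averaged 6.92 at week 16 and 10.12 at week 0 (-3.20 ± 0.79, adjusted p = 0.0284). With array weights, or with only the groups compared, 5 of all genes and none of these list members were called.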

How the data were processed

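Per the labels' protocols, RNA of snap-frozen preputial glands was amplified with the Ovation Pico WTA system and hybridised to 30 arrays. The authors deposited log2 intensities, 1 value per probe set, made with RMA per the submitters' processing notes, which give no version. The annotation build is not given in the sources used. Of 21212 probe sets, 18786 had 1 symbol, 6 had several and 2420 had none. A gene with several was read from its brightest on average. With limma 3.58.1 (R 4.3.3), 15 group means were fitted to all 30 arrays and 18784 genes, with moderated variances (15 residual and 6.91 prior degrees of freedom); the script was tested on simulated data. Tests were two-sided, with Benjamini-Hochberg adjustment over all genes, and a call is an adjusted p under 0.05. Errors are SE unless SD is written. With 2 arrays per group, their number limits the precision. Week 16 means of KO and WT entered no tested difference between groups. In the fit to all 30 arrays, those week 16 arrays did enter the variance of each gene. For Upk1b the SD at week 16 was 0.028 in KO and 0.040 in WT. In earlier weeks it was 0.080 to 0.38 in KO and 0.36 to 1.10 in WT. The part of the week 16 arrays in the SE of Upk1b was not tested.

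The members, gene lists and tests were chosen with earlier results of these data known. Genes named were the 5 uroplakins, the 5 most and 3 least correlated with Upk1b without predicted genes and olfactory receptors, list members called (up to 5 by adjusted p, of which the text names a part) or otherwise the 2 with the smallest p in KO against WT, and Krt5, Krt1, Awat2 and Scd1 for cell types; Scd1 differed by -0.36 in DKO and 0.04 in KO against WT, neither called. Krt7, Psca and the other genes of the WT ranking, the low-signal level and the fits to WT and KO arrays alone were chosen after the data were seen. Alternatives were quantile normalization, median centring, a low-value filter, other variance models, array weights, only the groups compared, replicate and label number blocks, and leaving out arrays. Same-numbered replicates were not paired: over 105 pairs of groups their deviations correlated at -0.55 to 0.67 (median -0.02), with 16 above 0.1.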

Additional observations from a re-analysis of the deposited data

How the results depend on the processing

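The tetraspanin calls in KO against WT are close to the threshold. Of all genes that comparison called 283, and 25 with quantile normalization, 418 of 9392 with the low-value filter and 1119 with array weights. The count of uroplakins called there was 2, and 0 with quantile normalization, 1 with the low-value filter (which only Upk1a and Upk2 passed), 1 with array weights, 3 without the narrow-range arrays or with WT and KO arrays only, and 0 to 3 when a single array was left out. Upk1b differed by -0.99 with quantile normalization and -1.02 with array weights, not called in either (adjusted p = 0.218 and 0.0679), and by -1.21 to -0.82 with 1 array left out, where the lone array of its group is assumed to vary like the others. In DKO against WT, 3 uroplakins were called where 69.5% of all genes were. Quantile normalization left 1 (27.1% of all genes), the filter 1 of the 2 it kept (5848 of 9392 genes) and the number block 0 (0.767%). Under that block Upk1b (0.10) and Upk2 (-0.091) changed sign. In DKO against KO, 1 uroplakin was called where 50.4% of all genes were, and 2 with a trended and robust variance (9582 of 18784 genes). None was called with quantile normalization (3149 genes), the filter (4340 of 9392), array weights (6514) or the number block (35). Sign changes there were Upk2 at 0.041 and Upk3a at -0.18 with quantile normalization, Upk3a at -0.039 with median centring, and Upk3a at -0.28 and Upk3b at -0.10 with the number block; with 1 array left out Upk2 ran from -0.17 to 0.033 and Upk3a from -0.030 to 0.16. In KO against WT within single weeks 0 of 20 were called, but 2 with array weights, 1 with only the groups compared or with WT and KO arrays only, and 4 without the narrow-range arrays; in DKO against WT 3 were called, 0 with quantile normalization, only the groups compared or the number block, and 2 to 4 with 1 array left out. Within WT, Upk3a was at -0.027 with quantile normalization and Upk1b ran from -0.47 to 1.09 with 1 array left out. Other uncalled changes over time that took both signs with 1 array left out were Upk1a in KO (-0.46 to 0.23) and, in DKO, Upk1a (-0.24 to 0.40), Upk2 (-0.55 to 0.014), Upk3b (-0.47 to 0.36) and Upk3b at week 16 (-0.064 to 0.97). The cause of these shifts was not tested. Replicates with the same number are not paired by the design; a replicate block changed no call and kept Upk1b in KO against WT at -1.02 (adjusted p = 0.0438). Signals under the low-signal level, as for Upk1b in KO and DKO, limit what their order shows.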
